A study of Equus caballus with 4 samples.

Results

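The glycolytic enzymes of differentiating equine satellite cells are described here, with GAPDH, the gene that served as the reference of the study's RT-qPCR. The members were GAPDH, ALDOA, PGK1, TPI1, ENO1, LDHA, LDHB, PFKM, GPI and HK2, and every gene probe whose gene name on the array was exactly one of these names was taken. This gave 34 probes of 10 genes, out of 43603 gene probes with 24998 gene names on the array. All 34 were among the 24230 probes that were well above background and were tested. GAPDH had 13 probes, ALDOA and ENO1 had 5 each, GPI had 4 and PGK1 had 2, while TPI1, LDHA, LDHB, PFKM and HK2 had 1 each.

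Satellite cells, the stem cells of skeletal muscle, form new fibres by fusion. They came from horse m. semitendinosus and were at day 3 of differentiation. Treated cultures received 0.125 µM of gamma-oryzanol (GO, ferulic acid esters of plant sterols found in rice bran oil) over 24 h, with hydrogen peroxide (H2O2) at 3 mM during the last 1 h. Control cultures received no GO. The labels do not say whether control cultures received H2O2, while the study's text describes them as exposed to it, and its methods give DMSO as vehicle in both media. Each of 4 arrays of 1 slide held treated RNA in Cy5 (red) and control RNA in Cy3 (green). The dyes were never swapped, and dye and treatment cannot be told apart. The labels call the arrays biological replicates. The study's methods describe muscle of several young stallions and the choice of the best primary cell line, so that the cultures may be of 1 line, and the p-values then measure only the spread between these cultures. A log2 ratio is treated over control, and a positive value is a higher signal with GO and H2O2.

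Glycolysis splits glucose into pyruvate and yields ATP without oxygen. Hexokinase (HK2 in muscle) traps glucose in the cell as glucose 6-phosphate, and further steps end in pyruvate, which lactate dehydrogenase turns into lactate. In skeletal muscle the pathway feeds fast contraction. GAPDH stands in the middle of the pathway, where it makes the NADH that lactate dehydrogenase uses up again. Its catalytic cysteine is a known target of H2O2, which inactivates the protein. Its mRNA is so abundant that it is widely used as a reference in RT-qPCR.

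The 13 GAPDH probes lay at 3 sites of 1 transcript. This grouping was made after the values were seen. It is read from the probe starts, and the probes of a site overlap. Each probe has 60 bases. At the 5′ site 5 probes start at transcript bases 167 to 171 (EquCab1, chr6:34315912-34316057, plus strand). At the middle site 1 probe starts at base 460 (chr6:34316533-34316697). At the 3′ site 7 probes start at bases 942 to 947 (chr6:34317634-34317804). The alignment of each GAPDH probe to the build is broken by a gap, of 82 bases at the 5′ site, 105 at the middle site and 106 at the 3′ site, as it is for a probe across an exon junction. Exons, introns and UTRs are not named, because the build was used without its annotation. The first and last probes of the outer sites and the middle probe are printed because the GAPDH ratio differed between the sites. Capitals mark the bases that all probes of a site hold (56 bases at the 5′ site, 55 at the 3′ site and the whole probe in the middle).
GAPDH 5′ site, start 167: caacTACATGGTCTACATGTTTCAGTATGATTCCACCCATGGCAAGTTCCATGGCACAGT
GAPDH 5′ site, start 171: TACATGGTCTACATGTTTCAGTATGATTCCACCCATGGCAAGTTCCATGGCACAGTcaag
GAPDH middle site, start 460: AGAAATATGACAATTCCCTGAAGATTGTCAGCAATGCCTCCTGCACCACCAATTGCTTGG
GAPDH 3′ site, start 942: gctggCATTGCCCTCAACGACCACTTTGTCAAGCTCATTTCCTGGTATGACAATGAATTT
GAPDH 3′ site, start 947: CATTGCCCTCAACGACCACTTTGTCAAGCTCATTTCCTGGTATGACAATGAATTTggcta

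The GC content of the 13 probes was between 43.3% and 45%. At the 3′ site 2 sequences were present under 2 probe names each (starts 942 and 943), at distant places of the array. They are repeats of 1 measurement and no replicates. A single probe stood for LDHA, the member with the lowest ratio (chr7:74431905-74431964, plus strand, start at transcript base 945). Its bases are printed in lower case, with no part marked.
LDHA, start 945: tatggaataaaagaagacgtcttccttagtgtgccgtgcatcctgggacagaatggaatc

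Across the array 4137 of the 24230 tested probes passed an adjusted p of 0.05 with limma (17.1%), 2299 as higher (9.49%) and 1838 as lower (7.59%). A tested probe had a median log2 SD of 0.09 between arrays, and the median log2 ratio of all tested probes was 0.0030. At the brightest probe of each gene name 2340 of 13692 passed (17.1%), and the median ratio was 0.0088. The number of calls depended on arrays 1, 3 and 4. Without array 1, 3 or 4 2, 38 and 0 probes passed, and 3899 passed without array 2. Of 12 myogenic markers tested, 8 passed as higher, with a median ratio of 0.22, and the summed signal of the 12 was 122907 to 189642 in control and 158724 to 237560 in treated cells. Endothelial markers (0 of 5 with a probe) and adipocyte markers (0 of 3) did not reach the tested level. Of 6 fibroblast markers tested, THY1 passed as higher and LUM as lower, the median ratio was 0.26, and the summed signal was 283137 to 401444 in control and 381422 to 421587 in treated cells. Of 2 leukocyte markers tested, CD14 passed as lower, and the summed signal was 3317 to 5131 in control and 3030 to 4293 in treated cells. The part of these cell types in the glycolytic values was not tested. In a culture, fewer cells of a type and less RNA per cell cannot be told apart.

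Among the 34 probes of the glycolytic enzymes 11 passed as higher (32.4%) and 0 as lower. Without adjustment 18 had a limma p under 0.05, of which 1 was lower. Of all 24230 tested probes 8898 had such an unadjusted p. The 11 probes belonged to GAPDH (4 of 13), ALDOA (3 of 5) and ENO1 (4 of 5). The overlapping probes of a gene share their RNA and nearly all of their bases, so that the 11 calls stand for 3 places in 3 transcripts. By gene, at the brightest probe, 3 of 10 passed, all as higher (GAPDH, ALDOA and ENO1), and the median ratio over the 10 genes was 0.03. The ratio was positive for 6 genes and negative for 4. No member reached a large change, and the ratios of single arrays over all 34 probes ran from −0.37 to 0.39. Array 3 gave the highest of the 4 ratios for 32 of the 34 probes, and array 1 gave the lowest for 21. Without array 1, 3 or 4 no member probe passed with limma (0 of 34), and 5 passed without array 2.

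**Figure D1:**
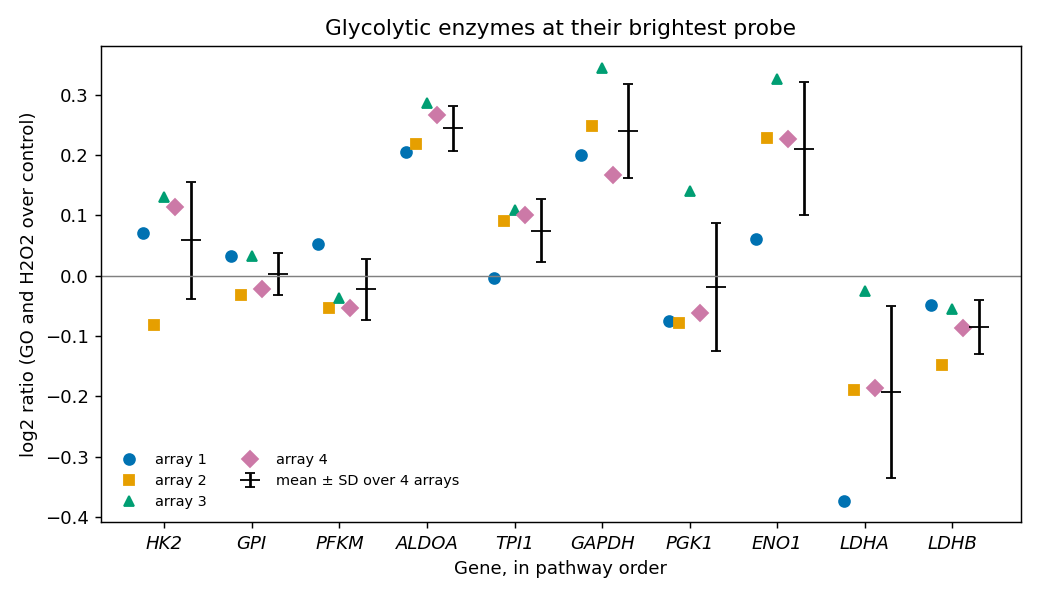
Log2 ratio of GO and H2O2 over control for each glycolytic enzyme at its brightest probe, in pathway order. Coloured points are the 4 arrays, and the black mark with its bar is their mean ± SD. ALDOA, GAPDH and ENO1 lie above 0 on all 4 arrays, LDHA and LDHB lie below 0 on all 4, and the points of HK2, GPI, PFKM, TPI1 and PGK1 lie on both sides of 0.

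GAPDH, which oxidises glyceraldehyde 3-phosphate, had a ratio of 0.20, 0.25, 0.34 and 0.17 on arrays 1 to 4 at its brightest probe (start 946). All 4 arrays were above 0, and the mean was 0.24 ± 0.08 (SD, n = 4 arrays; limma adjusted p = 0.0233), a fold change of 1.18. The call was lost without array 1 (0.25, adjusted p = 0.0902), array 3 (0.20, adjusted p = 0.0680) and array 4 (0.26, adjusted p = 0.0841), and it held without array 2. As a mean over its 13 probes GAPDH had 0.09 ± 0.09 and did not pass (adjusted p = 0.206). The SD over the means of the 13 probes was 0.13, larger than the median SD over arrays of these probes (0.09), so that the choice of probe moved the GAPDH value more than the arrays did.

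The GAPDH ratio depended on the site. The mean of the 5 probes at the 5′ site was −0.15, −0.05, 0.11 and −0.04 on arrays 1 to 4. The single probe of the middle site had −0.18, −0.08, −0.0038 and −0.15. The mean of the 7 probes at the 3′ site was 0.10, 0.23, 0.29 and 0.19. The 3′ site was thus above both other sites on each array, although all of these probes are named for the same gene.

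At the 5′ site the mean over arrays was −0.03 ± 0.11, with means of single probes between −0.04 and −0.02 and adjusted p-values between 0.543 and 0.781. At the middle site it was −0.10 ± 0.08 (adjusted p = 0.147). None of these 6 probes passed with limma, and 0 had an unadjusted p under 0.05. At the 3′ site the mean was 0.20 ± 0.08, with means of single probes between 0.13 and 0.27, and 4 of the 7 probes passed (adjusted p between 0.0218 and 0.0793). The spread between probes within the outer sites was small, with an SD of 0.0085 at the 5′ site and 0.05 at the 3′ site.

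The difference between the 3′ and 5′ sites was taken within each array. It was 0.25, 0.28, 0.18 and 0.23, with a mean of 0.24 ± 0.04 (95% interval from 0.17 to 0.30). The difference between the 3′ and middle sites was 0.31 ± 0.03 (interval from 0.26 to 0.35). It was positive on 4 of 4 arrays in both cases, where the exact two-sided sign-flip test gives p = 0.125, the smallest p that 4 arrays allow. The middle site was below the 5′ site on all 4 arrays, with a mean difference of −0.07 ± 0.05 (interval from −0.15 to 0.0082, exact p = 0.125). The difference of 0.24 between the outer sites is as large as the GAPDH ratio at its brightest probe. For the 3′ minus 5′ difference the size depended on the processing, and it was 0.10 ± 0.06 with Agilent's processed signals, 0.11 ± 0.06 after subtraction of the running median of all tested probes at the same signal and 0.42 ± 0.08 with median centring in place of loess. It was positive on all 4 arrays under each of these settings.

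**Figure D2:**
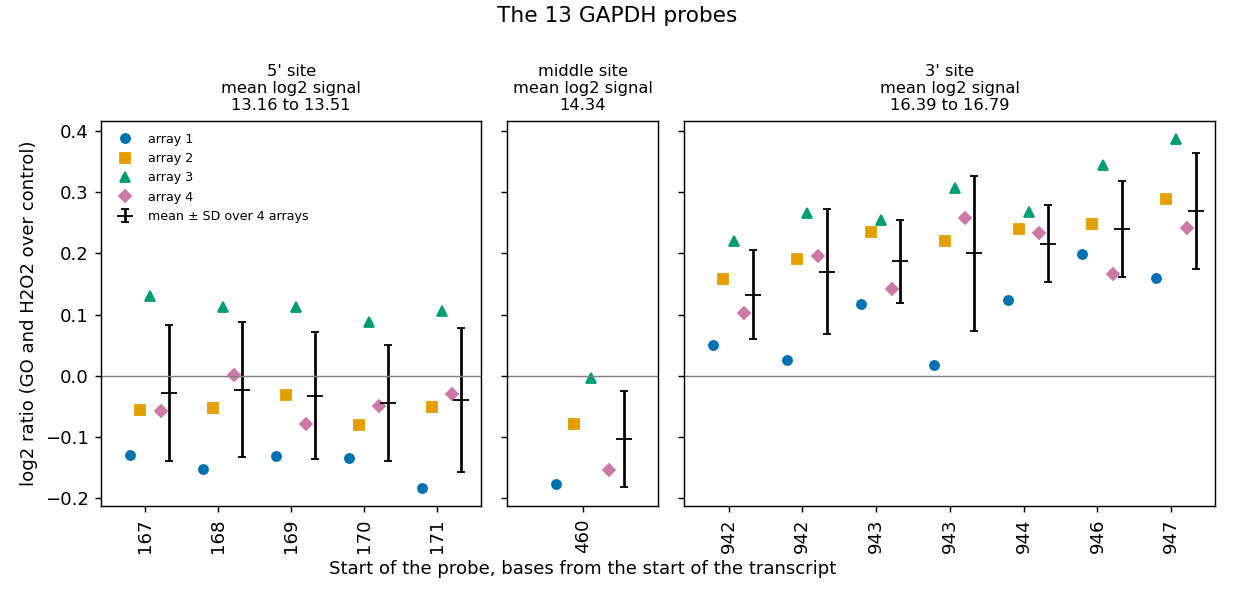
Log2 ratio of the 13 GAPDH probes, by the base of the transcript at which each starts, in 3 panels for the 3 sites. Coloured points are the 4 arrays, and the black mark with its bar is their mean ± SD. The 7 probes of the 3′ site have all of their points above 0 (0.02 to 0.39), and the 6 probes of the other sites have means below 0.

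The sites differed in signal as well as in position. Treated intensity as scanned was 8737 to 15314 at the 5′ site, 19685 to 27855 at the middle site and 95144 to 178196 at the 3′ site, over all probes and arrays. Control intensity was 6589 to 13286, 15637 to 23547 and 59475 to 103555 at these sites. The mean log2 signal was 13.16 to 13.51 at the 5′ site, 14.34 at the middle site and 16.39 to 16.79 at the 3′ site. The brightest site is also the one nearest the 3′ end, so that signal and position cannot be told apart within GAPDH. Intensity depends on the probe as well as on the RNA, and these values give no order of transcript levels. The GAPDH probes above the median signal of the 13 had a mean ratio higher than those below it by 0.25 ± 0.03 (0.26, 0.29, 0.21 and 0.25 on arrays 1 to 4; exact two-sided sign-flip p = 0.125).

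Probes of 1 transcript that start at least 300 bases apart were available for 319 transcripts on the array. Their 3′ minus 5′ difference had a median of 0.01 and quartiles of −0.07 and 0.13, and 169 of the 319 differences were positive. The GAPDH difference of 0.24 was reached or passed by 33 transcripts (10.3%), and 40 (12.5%) had a difference of at least this size in either direction. The 3′ probes were the brighter ones in 225 of the 319 transcripts.

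The 2 sequences that each have 2 probe names show the error of a single spot. The probes that start at 942 had means of 0.13 ± 0.07 and 0.17 ± 0.10, and on single arrays they differed by −0.09 to 0.02. The probes that start at 943 had 0.19 ± 0.07 and 0.20 ± 0.13, and differed by −0.11 to 0.10. Of this second pair 1 name passed (adjusted p = 0.0347) and the other did not (0.0531), so that the same bases fell on both sides of the threshold.

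Ratio and signal were then set side by side for all 34 probes. A mean log2 signal above 16 was found for 17 of them, the 7 GAPDH probes of the 3′ site and the 5 probes each of ALDOA and ENO1. All 17 had a positive mean, all 17 had an unadjusted p under 0.05, and 11 passed as higher (64.7%). These 17 are overlapping probes at 3 places in 3 transcripts and do not count as 17 measurements. Of all 405 probes of any gene above this signal, these 17 included, 148 passed as higher (36.5%) and 8 as lower. The median ratio of the 405 was 0.14, and 325 of them had a positive mean. The other 17 member probes had signals of up to 15.48, and 6 had a positive and 11 a negative mean. Of these dimmer probes 0 passed with limma (lowest adjusted p = 0.0683), and 1 had an unadjusted p under 0.05. The methods' t-test passed 0 of all 34 member probes and 5 probes on the whole array, so it cannot separate bright from dim probes. Among the dimmer probes of all genes 9.03% passed as higher, and among all tested probes 7.59% passed as lower. All calls of the glycolytic enzymes were therefore among bright probes, where calls of other genes were also more frequent.

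The running median of all tested probes over their neighbours in signal gave a value to subtract from each ratio. It was 0.10 at the brightest probes of GAPDH, ALDOA and ENO1 and −0.03 at the GAPDH 5′ site. After subtraction 0 of 34 member probes passed with limma. GAPDH kept 0.14 ± 0.08 at its brightest probe (limma adjusted p = 0.0842), ALDOA kept 0.14 ± 0.04 (0.0530) and ENO1 kept 0.11 ± 0.12 (0.201). LDHA had −0.16 ± 0.16 (0.134). On the whole array 3782 probes passed with this subtraction.

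**Figure D3:**
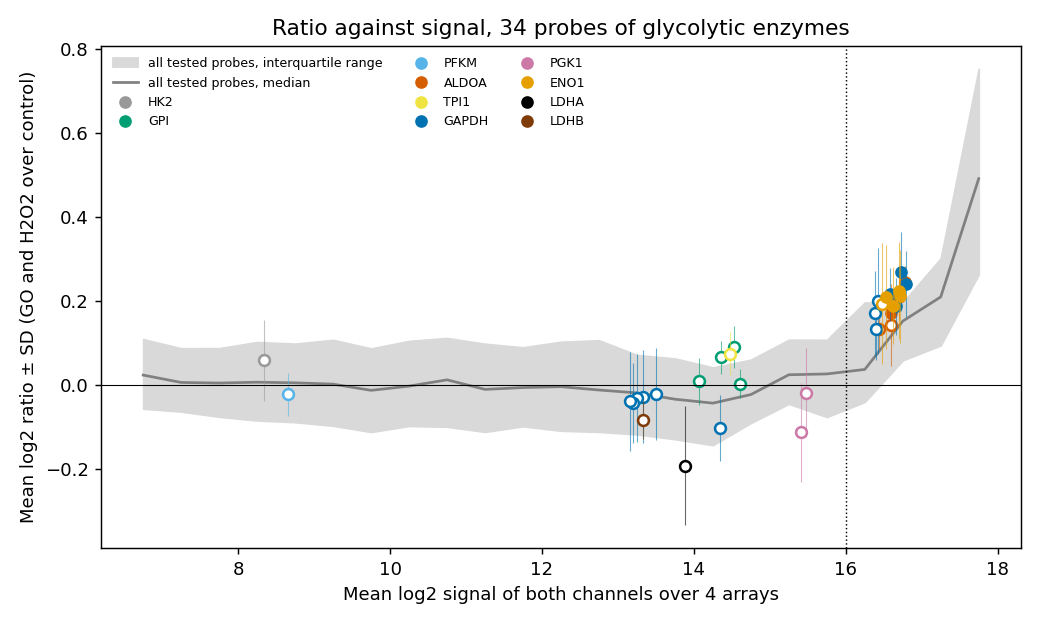
Mean log2 ratio ± SD over 4 arrays against the mean log2 signal of both channels, for the 34 probes of the glycolytic enzymes. Filled points passed the limma threshold and open points did not. The grey line and band are the median and interquartile range of all tested probes in bins of signal, and the dotted line is at 16. The 11 filled points are all right of that line, where the grey median also rises above 0.

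The enzymes of the first steps of the pathway did not pass. HK2, the hexokinase of muscle, had ratios of 0.07, −0.08, 0.13 and 0.11 on arrays 1 to 4, with a mean of 0.06 ± 0.10 (limma adjusted p = 0.418). Its signal was low, with control intensities of 271 to 355. GPI, which converts glucose 6-phosphate to fructose 6-phosphate, had 0.03, −0.03, 0.03 and −0.02 at its brightest probe, with a mean of 0.0025 ± 0.03 (adjusted p = 0.968). HK2 was above 0 on 3 of 4 arrays and GPI on 2. The means of the 4 GPI probes were between 0.0025 and 0.09, and 2 of these probes were above 0 on all arrays. PFKM, the muscle subunit of phosphofructokinase, which commits the sugar to the pathway, had 0.05, −0.05, −0.04 and −0.05, with a mean of −0.02 ± 0.05 (adjusted p = 0.713). Its probe was also dim, with control intensities of 283 to 466, and its value on array 1 stood apart from the other 3.

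ALDOA, the aldolase that splits fructose 1,6-bisphosphate into a pair of trioses, was the member with the highest ratio at its brightest probe. It had 0.21, 0.22, 0.29 and 0.27 on arrays 1 to 4, with a mean of 0.24 ± 0.04 (limma adjusted p = 0.0184), a fold change of 1.18. All 4 arrays were above 0 and close to each other. Its 5 probes start at transcript bases 1289 to 1293 and had means of 0.13 to 0.24, and 3 of them passed. The mean over its probes also passed (0.18 ± 0.04, adjusted p = 0.0288). The call at the brightest probe held without array 2 (adjusted p = 0.0251) and was lost without array 1 (0.0820), array 3 (0.0622) and array 4 (0.0841).

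TPI1, which interconverts the trioses, had −0.0032, 0.09, 0.11 and 0.10, with a mean of 0.07 ± 0.05 (limma adjusted p = 0.227). Array 1 was at 0 and the other 3 arrays were above it. PGK1, which makes ATP from the product of GAPDH, had −0.08, −0.08, 0.14 and −0.06 at the brighter of its 2 probes, with a mean of −0.02 ± 0.11 (adjusted p = 0.816). Only array 3 was above 0. Its other probe starts 63 bases further 5′ and had −0.20, −0.11, 0.05 and −0.20, with a mean of −0.11 ± 0.12 (adjusted p = 0.174), and it was below the brighter probe on each array.

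ENO1, the enolase that makes phosphoenolpyruvate, had 0.06, 0.23, 0.33 and 0.23 at its brightest probe, with a mean of 0.21 ± 0.11 (limma adjusted p = 0.0404) and a fold change of 1.16. All 4 arrays were above 0, with array 1 lowest. Its 5 probes start at transcript bases 1608 to 1628, had means of 0.19 to 0.22 and differed little (SD over probes 0.01), and 4 of them passed. The mean over probes passed as well (0.20 ± 0.11, adjusted p = 0.0436). The call at the brightest probe was lost without any 1 array, with an adjusted p of 0.0833 without array 1, 0.0679 without array 2, 0.112 without array 3 and 0.135 without array 4. It was also lost without background correction (adjusted p = 0.0518), with normexp at offset 0 (adjusted p = 0.0582) and with Agilent's processed signals. In those signals another ENO1 probe was the brightest (start 1628, ratio 0.06), and the probe used here had 0.11.

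The lactate dehydrogenases had negative means. LDHA, the form that favours the making of lactate, had −0.37, −0.19, −0.03 and −0.19 on arrays 1 to 4, with a mean of −0.19 ± 0.14 (limma adjusted p = 0.0683). All 4 arrays were below 0, but they spread widely, and array 3 was close to 0. LDHB, the form of oxidative tissues, had −0.05, −0.15, −0.06 and −0.09, with a mean of −0.08 ± 0.05 (adjusted p = 0.168). Neither passed the threshold. Each rests on 1 probe, of log2 signal 13.89 for LDHA and 13.32 for LDHB.

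The other 9 members were compared with GAPDH at its brightest probe, array by array, which gave 9 differences. ALDOA differed from GAPDH by 0.0040 ± 0.07 (95% interval from −0.11 to 0.11), and ENO1 by −0.03 ± 0.08 (interval from −0.16 to 0.10). For both genes the interval holds 0, and differences up to its ends are not excluded. The other 7 genes lay below GAPDH on 4 of 4 arrays. All 9 differences share the same 4 GAPDH values (0.17 to 0.34). The median ratio over all gene names was 0.0088, and a gene at that ratio also lies below this GAPDH probe. The share of all gene names below it was not counted, so that these differences show nothing particular to the 7 genes. Their probes had log2 signals of up to 15.48, against 16.79 for the GAPDH probe. For LDHA the difference was −0.57, −0.44, −0.37 and −0.35 (mean −0.43 ± 0.10), for LDHB −0.32 ± 0.08, for PFKM −0.26 ± 0.10, for PGK1 −0.26 ± 0.05, for GPI −0.24 ± 0.07, for HK2 −0.18 ± 0.12 and for TPI1 −0.17 ± 0.07. The interval of HK2 also held 0 (from −0.37 to 0.0073), and those of the other 6 lay below it. The exact two-sided sign-flip test gave p = 0.125 for each of these 7, the smallest that 4 arrays allow. After Benjamini-Hochberg adjustment over the 9 this sign-flip p was 0.161. With the running median over each probe's neighbours in signal subtracted, 5 genes lay below GAPDH on every array. TPI1 (−0.04 ± 0.07) and HK2 (−0.08 ± 0.14) then did not, and GPI was at −0.12 ± 0.09.

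The GAPDH 5′ site was then taken as the reference. ALDOA was above it on all 4 arrays (0.28 ± 0.07), and so was ENO1 (0.24 ± 0.04). LDHA lay below it on all 4 arrays (−0.16 ± 0.04). The other 6 genes lay on both sides of it, with differences of 0.01 for PGK1 and PFKM, 0.04 for GPI, 0.09 for HK2, 0.11 for TPI1 and −0.05 for LDHB. Thus 7 genes were below GAPDH on every array when the brightest probe was the reference, and 1 when the 5′ site was. With Agilent's processed signals the brightest probe was picked again, which changed it for GAPDH (start 947), ENO1 (start 1628) and PGK1 (start 1499). At these probes 4 genes were below GAPDH on every array, PGK1, LDHA, LDHB and also ENO1 (−0.08 ± 0.05). TPI1, PFKM, GPI and HK2 were not. At the probes used before, ENO1 had processed ratios of −0.05, 0.180, 0.243 and 0.08, against 0.04, 0.173, 0.235 and 0.10 for GAPDH. There ENO1 was above GAPDH on arrays 2 and 3. The count of genes below GAPDH was 3 when each gene was given by the mean over its probes.

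**Figure D4:**
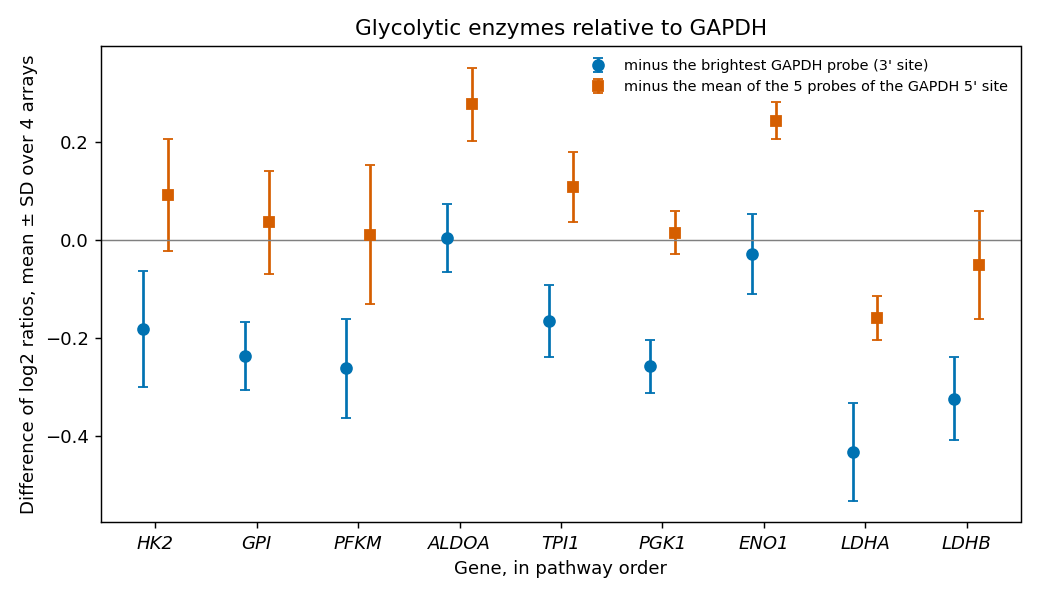
Log2 ratio of each glycolytic enzyme minus that of GAPDH, as mean ± SD over 4 arrays. Blue circles take the brightest GAPDH probe as reference, and orange squares take the mean of the 5 probes of the GAPDH 5′ site. All orange squares lie higher than the blue circle of the same gene, by 0.27.

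GAPDH was the reference for the RT-qPCR of NR2F2, BTF3, DTD1, GTPBP1 and OTUD4, genes that the study chose on these arrays. Their array ratios were set against each of the 13 GAPDH probes, as a description and without a test. The choice of GAPDH probe moved each difference by up to 0.37. NR2F2, an orphan nuclear receptor, had ratios of 0.12, 0.13, 0.09 and 0.10, and its difference was between −0.16 and 0.21 over the 13 probes. It was above the 3′ site on 1 of 4 arrays and above the 5′ site on 3 of 4. OTUD4, a deubiquitinase, was above GAPDH at every probe (0.05 to 0.42). GTPBP1 was above it as well (0.29 to 0.66). BTF3, a subunit of the nascent chain complex, was below every GAPDH probe (−0.62 to −0.25), and so was DTD1 (−0.51 to −0.14), which clears misacylated tRNA. The sign of the array ratio relative to GAPDH thus depended on the probe for NR2F2 alone among the 5 genes. For NR2F2 the study reports an RT-qPCR rise much larger than these array differences. Where the study's GAPDH primers lie relative to the 3 sites was not determined, and a bearing on its RT-qPCR was not tested.

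Other genes of the pathway were read from lists, and 17.1% of all gene names passed at their brightest probe. Of 21 other glycolytic enzymes (isoforms and steps outside the 10 members), 19 had a probe and 12 were tested at their brightest probe. Of these 6 had a positive and 6 a negative ratio, and the median was 0.0073. With limma 0 passed, while 2 had an unadjusted p under 0.05, as did 8898 of all 24230 tested probes. All 12 were tested at a signal below 16. Of 10 carriers of glucose and lactate, 6 were tested and 1 passed, with a median of −0.0095. It was BSG, the partner that brings lactate carriers to the cell surface, with 0.57, 0.29, 0.50 and 0.58 on arrays 1 to 4. Its mean of 0.49 ± 0.13 (limma adjusted p = 0.0136) was larger than that of any member. Of 18 genes that control glycolysis and the entry of pyruvate into mitochondria, 7 were tested, with a median of −0.06. With limma 0 of these passed, and 0 had an unadjusted p under 0.05. The methods' t-test passed 0 genes of these lists, but it passed only 5 probes on the whole array. BSG did not pass without array 1, 3 or 4, where the lists held 0 calls.

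Other genes in common use as references did not share 1 direction. Of 18 listed, 14 were tested, and 3 passed as higher and 1 as lower (28.6%), with a median of −0.02. Of all gene names at their brightest probe 17.1% passed. RPS18, of the small ribosomal subunit, had 0.55 ± 0.10 (limma adjusted p = 0.0105). ACTB, cytoplasmic actin, had 0.45 ± 0.13 (adjusted p = 0.0149), and RPLP0, of the large ribosomal subunit, had 0.22 ± 0.10 (adjusted p = 0.0348). These 3 genes were among 6 reference genes with a log2 signal above 16, as the GAPDH 3′ site is. Of all probes above this signal 36.5% passed as higher. HPRT1, a purine salvage enzyme, was lower, with −0.33 ± 0.12 (adjusted p = 0.0190) at a signal of 11.15. GAPDH at 0.24 lay between RPLP0 and ACTB, and its 5′ site at −0.03 was close to the list's median. The count of 4 fell to 0 without array 1, 3 or 4.

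The 5 gene names whose ratios were most like those of GAPDH at its brightest probe were picked among 13691 by the root mean square difference over the 4 arrays, which was 0.03 to 0.04 on the log2 scale. Only 1 of them has a gene symbol, POGLUT1, an O-glucosyltransferase, with a mean of 0.26 ± 0.06 and a difference of 0.03. The others are probes named by transcript or probe identifiers alone. None of the 9 other members was among these 5.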

How the data were processed

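Expression was measured in 4 two-colour arrays of treated (Cy5) against control (Cy3) equine satellite cells. The deposited files hold, for each spot, the intensities that the authors obtained with Feature Extraction (Agilent, 10.10.1.1), and the headers name the build EquCab1. The deposited log10 ratio is that of Agilent's processed red over green intensity, after background subtraction and dye normalisation, and the series matrix gives these log10 values again (largest difference 0), which settles its scale, centring and direction.

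For each channel the background median was removed from the mean intensity by normexp (offset 50), and loess within arrays followed, in which control spots had weight 0 (limma 3.58.1, R 4.3.3). Of 43803 gene spots, 7 to 16 per array had an outlier mark and were left out, and 0 were saturated. Control spots (1417) were left out, and spots of a probe were averaged. A probe was kept if 1 of its channels was well above background on every array. The mean log2 ratio was tested against 0 with limma (lmFit and eBayes, two-sided), with Benjamini-Hochberg adjustment over 24230 probes and a threshold of 0.05. The script was tested on simulated data. Student's test, which the study used, was run as the methods' t-test. The number of arrays limits the precision. Errors are SDs between arrays, and 95% intervals use the t distribution. Each array is a pair of 1 treated and 1 control RNA, so that the ratio is itself the block.

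Named genes were all members, at most 3 called genes at each end of the other pathway and reference lists, the RT-qPCR genes, and the 5 genes most like GAPDH. A gene's value is that of its brightest tested probe, picked again where an alternative changed the signals. The members and lists were chosen with earlier results of these data known. Alternatives concerned the signals (Agilent's processed values, or the series matrix), the background (none, or normexp at offset 0), the normalisation (median centring, a running median over signal, row and column medians), the filter, the variance model (trend with robust estimation, or array weights), the test, the replicate block, the probe of a gene (the mean over probes) and each array left out. The 3 GAPDH sites were added after the values were seen. Probe bases were copied from the deposited files. Bases of probes at transcript ends are not shown.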

Additional observations from a re-analysis of the deposited data

Results flagged for a closer look

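Dixon's test for 4 values was applied to 58 sets of array values of the genes named here, and 3 sets held an array that stood apart. Chance alone flags about 1 in 20 sets. PGK1 had 0.14 on array 3 at the probe that starts at transcript base 1562, against −0.08, −0.08 and −0.06 on the others. TPI1 had −0.0032 on array 1, against 0.09, 0.11 and 0.10. PFKM had 0.053 on array 1, against −0.05, −0.04 and −0.05. None of these 3 genes passed the threshold with limma, and the sources of the differing arrays were not tested.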

How the results depend on the processing

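Agilent's processed signals and the series matrix values gave 0 member probes and 0 member genes past the threshold. GAPDH had 0.14 at the probe brightest in these signals (start 947, limma adjusted p = 0.121). Bright minus dim GAPDH probes gave 0.11, the pathway lists held 3 calls, and 4 genes were below GAPDH on every array. Median centring gave 12 calls among all probes, 0 among member probes, member genes, pathway lists and reference genes, 0.48 for GAPDH (adjusted p = 0.551) and 0.43 for bright minus dim. Subtraction of the running median gave 0 member probes and genes, 0.14 for GAPDH (limma adjusted p = 0.0842), 0.13 for bright minus dim, and 5 genes below GAPDH on every array. The methods' t-test gave 5 calls among all probes, 0 among member probes, member genes, pathway lists and reference genes, and an adjusted p of 0.0952 for GAPDH at 0.24. Normexp with offset 0 gave 5 member probes and 2 calls in the pathway lists, and no background correction gave 8 member probes. Both gave 2 member genes, with ENO1 lost. The pathway lists also had 2 calls with row and column medians, with array weights and with the mean over probes, and the last left 3 genes below GAPDH on every array. The mean over GAPDH probes of 0.09 became −0.033 with the 5′ site alone, −0.10 with the middle probe alone and 0.20 (adjusted p = 0.0314) with the 3′ site alone, settings added after the values were seen. Without the replicate block, with the channels as 2 groups of 4, 594 of all probes, 1 member probe and 1 member gene (ALDOA) passed, and GAPDH at 0.24 had an adjusted p of 0.0737. The pairing is that of both channels on 1 array.

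With 1 array left out, calls ranged from 0 to 3899 among all probes, from 0 to 5 among member probes, from 0 to 2 among member genes and in the pathway lists, and from 0 to 4 among reference genes. The GAPDH ratio ranged from 0.20 to 0.26 and its mean over probes from 0.05 to 0.12, bright minus dim from 0.24 to 0.27, and genes below GAPDH from 7 to 8. Apart from the mean over GAPDH probes, which turned negative with the 5′ site or the middle probe alone, signs turned for 3 genes near 0. None of these 3 was past the threshold. PFKM had 0.00063 without background correction and 0.013 with row and column medians. GPI had −0.0016 without background correction, −0.0030 with offset 0, −0.0073 without array 1 and −0.0075 without array 3, and up to 0.014 with another array left out. PGK1 had 0.15 with median centring, 0.00031 without array 1, 0.0011 without array 2 and −0.072 without array 3. With Agilent's processed signals the other PGK1 probe was the brighter, at −0.16 (limma adjusted p = 0.0981), and the probe used here had −0.04. GAPDH at its brightest probe, ALDOA, ENO1, TPI1, HK2, LDHA and LDHB kept their sign under every alternative run. The cause of these changes was not tested.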
